A study of Drosophila melanogaster with 9 samples.

Results

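The RNA levels of 25 genes for translation initiation factors were followed in whole Drosophila embryos from wild-type mothers and from mothers mutant for obe. The genes were chosen by name: of the 15334 genes listed, 28 had a symbol starting with eIF (eIF4AIII was left out), and 25 of these had a mean of 10 or more normalized counts over the 9 libraries. Normalized counts are the authors' reads per gene divided by 1 size factor per library. The 3 that were left out are copies of the cap-binding protein gene eIF-4E: eIF4E-7 had a mean of 3.23, eIF4E-3 of 2.54, and eIF4E-4 was listed at 0 in every library. The lowest genes that were kept are also such copies, eIF4E-5 with a mean of 15.6 and eIF4E-6 with 14.9.

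The gene obe (CG5205, obelus) encodes a Ski2-family RNA helicase. Wild-type embryos were of the Oregon-R strain, written OreR. The obe1/obe2 and obe2/Df libraries were made from the offspring of mothers that carried the obe2 allele over obe1 or over a chromosome named Df, after a cross to fathers heterozygous for obe2. The mothers therefore lacked a wild-type obe allele as far as the labels name them, while the embryos of a library were a mixture of genotypes. What is changed in each allele, and which interval Df lacks, is not in the labels. Each of the 3 groups had 3 libraries of about 50 hand-picked embryos 3 h old, from late stage 5 or early stage 6, as the cellular blastoderm turns to gastrulation. Whether the 3 RNA preparations of a genotype had separate parents is not said in the labels, so a p-value here reflects the spread over these libraries alone, and that spread may be technical.

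Translation initiation loads the small ribosomal subunit with the initiator tRNA, brings it to the capped 5′ end of an mRNA, lets it scan to a start codon and then joins the large subunit. eIF2 carries the initiator tRNA and is recharged with GTP by eIF2B, eIF3 is a large scaffold on the small subunit, and eIF4E, eIF4G and eIF4A bind and open the cap-proximal end of the mRNA. The early fly embryo lives on mRNA and ribosomes from the egg, and translation of stored mRNA patterns it before and while its own genome is switched on.

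In OreR, obe was at 5850.1, 8562 and 6755 normalized counts. It was at 821, 672 and 698 in obe1/obe2 and at 277, 245 and 183 in obe2/Df, so the groups did not overlap and the labels matched the gene. Whole reads recovered from the matrix came to between 61007517 and 123121486 per library. On the first principal component of all tested genes, which held 56.9% of the variance, obe2/Df replicate 1 stood at 108.5 against 47.5 and 49.8 in the other obe2/Df libraries. Of 19 genes that the embryo switches on early, such as sna, twi and ftz, 18 were lower in obe2/Df than in OreR (29.5% of all genes). Of these 19, 0 were higher there (31.0% of all genes), with a median log2 fold change of -4.53, and 0 were called in obe1/obe2 (22.6% of all genes). Their mean log2 difference from OreR was -6.82, -2.47 and -3.15 in the 3 obe2/Df libraries, replicate 1 being the lowest. Their summed level ran from 52897 to 67819 normalized counts in obe2/Df against 211633 to 290831 in OreR and 150633 to 294132 in obe1/obe2. Without hb, slam and fra, which held most of the sum in obe2/Df, the other 16 genes summed to 429, 11994 and 8521 in obe2/Df against 78812 to 123443 in OreR. These 16 summed to 46507, 119308 and 56122 in obe1/obe2, so replicates 1 and 3 lay below every OreR library. Summed maternal RNAs that are normally cleared ran from 1144647 to 1285560 in obe2/Df from 899975 to 1036606 in OreR and from 923216 to 1138154 in obe1/obe2. Of the 15 tested, 8 were higher and 4 lower in obe2/Df (31.0% and 29.5% of all genes), and 1 was higher and 4 lower in obe1/obe2 (11.0% and 11.7%). Among these, Hsp83 was at 129473 to 141889.8 normalized counts in OreR, 110478, 52445 and 62854 in obe1/obe2 and 153791 to 187177 in obe2/Df, so all obe1/obe2 libraries lay below and all obe2/Df libraries above OreR; png had the same arrangement. Their log2 fold changes in obe1/obe2 were -0.91 ± 0.23 (adjusted p = 0.0234) and -0.85 ± 0.22 (adjusted p = 0.0238), and both were named after their values were seen. These calls were lost without any 1 OreR library or without obe1/obe2 replicate 2 or 3 (-0.94 to -0.69, adjusted p 0.0543 to 0.0851). Against OreR, Hsp83 was not called in obe2/Df (0.36 ± 0.23, adjusted p = 0.201). There png was called (0.75 ± 0.22, adjusted p = 0.0166), but not without obe2/Df replicate 3 (0.68, adjusted p = 0.0553). Neither gene stands for its list, as the median log2 fold change of the 15 tested genes was -0.02 in obe1/obe2. Summed pole cell RNAs ran from 212092 to 252139 in obe2/Df, against 153303 to 165346 in OreR and 124363 to 184849.7 in obe1/obe2. Of 10 genes, 6 were higher and 1 lower in obe2/Df (31.0% and 29.5% of all genes), and 2 higher and 1 lower in obe1/obe2 (11.0% and 11.7%). In this sum osk was at 55327 to 74943 in obe2/Df, 27534 to 29486 in OreR and 9575 to 28019 in obe1/obe2. Both osk and nos are also among the maternal RNAs above, so the maternal and pole cell sums are not independent. The part of these differences in the values below was not tested. Whole embryos were ground, so fewer cells with an RNA and less of that RNA per cell cannot be told apart.

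Tests were made with limma over 8346 genes, and a gene is said to have risen or fallen where its Benjamini-Hochberg adjusted p over these genes was under 0.05. Both obe groups were compared with the same OreR libraries. In obe1/obe2 against OreR, 6 of the 25 genes fell and 0 rose, in a comparison that called 22.6% of all genes, 11.0% higher and 11.7% lower. The share of the 25 genes called, 24.0%, was near that background. At an unadjusted p under 0.05, 1 was higher and 7 lower; edgeR called 0 higher and 5 lower, and DESeq2 1 and 7. In obe2/Df against OreR, 4 genes rose and 9 fell, beside 60.5% of all genes, 31.0% higher and 29.5% lower. Here too the share of these genes called, 52.0%, did not exceed the share of all genes. In obe2/Df against obe1/obe2, 8 genes were higher and 4 lower, beside 44.7% of all genes, 25.2% higher and 19.5% lower. Counted by libraries, 1 of the 25 genes had all obe1/obe2 libraries above and 7 all below OreR, where 17.1% and 20.2% of all genes did. For obe2/Df these were 8 above and 10 below OreR (36.2% and 34.3% of all genes), and 9 above and 7 below obe1/obe2 (30.7% and 29.2%). The median log2 fold change of the 25 genes was -0.10, -0.08 and 0.00 in the 3 comparisons, against -0.07, -0.01 and -0.03 for all tested genes. Of the 25, 18 were called in at least 1 comparison and 7 in none. The matching share of all tested genes was not counted, but it cannot lie under the 60.5% called in obe2/Df against OreR. Whether 18 of 25 exceeds that share was therefore not tested. Without obe2/Df replicate 1, 3 of the 25 genes rose and 8 fell in obe2/Df against OreR. Changes of at least 2-fold were few. In obe1/obe2 none of the 25 genes was called with one, where 3.2% of all genes fell and 5.12% rose by as much; in obe2/Df eIF4E-5 fell and eIF4E-6 rose by at least 2-fold, beside 7.54% and 15.2% of all genes. Between the obe groups eIF4E-5 was lower and eIF-2beta higher in obe2/Df by at least 2-fold, beside 4.31% and 12.8% of all genes. Of these genes, eIF4E-5 and eIF4E-6 passed the mean of 10 only through the groups where they were high.

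By complex, all 3 eIF2 genes fell in obe1/obe2 (11.7% of all genes fell), while 1 rose and 1 fell in obe2/Df. Without OreR replicate 3, or without obe1/obe2 replicate 3, 1 of the 3 eIF2 genes fell in obe1/obe2. Of the 5 eIF3 genes, 2 fell in obe1/obe2 and 4 in obe2/Df (29.5% of all genes fell), and 0 rose. Of the 8 genes of eIF2B, start codon recognition and joining, 0 were called in obe1/obe2, and 2 rose and 0 fell in obe2/Df, fewer calls than the 60.5% of all genes. In obe1/obe2 the number of falls depended on single OreR libraries, with 3 genes falling without OreR replicate 1 and 3 without OreR replicate 3. Quantile normalization, which forces every library onto the same distribution, called 59.3% of the called genes higher in obe1/obe2 in place of 48.5%, and 43.3% in place of 56.3% in obe2/Df against obe1/obe2.

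**Figure D1:**
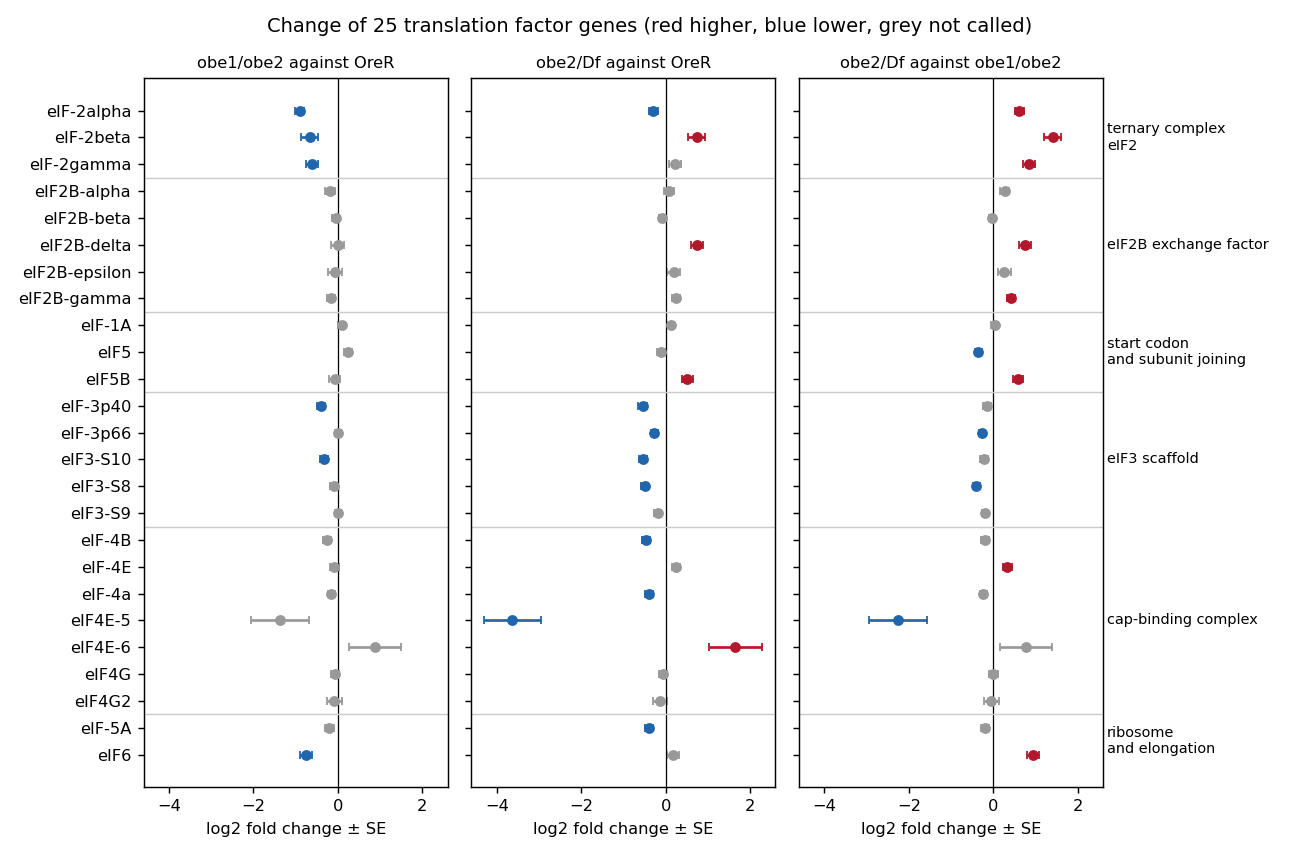
Log2 fold change with its standard error (x axis) of each of the 25 genes (y axis, grouped by complex) in the 3 comparisons, with red for higher, blue for lower and grey for not called. The 3 eIF2 genes lie left of 0 in obe1/obe2 and right of 0 in obe2/Df against obe1/obe2, and the 5 eIF3 genes lie left of 0 in obe2/Df against OreR.

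eIF2 is a trimer: the gamma subunit binds GTP and the initiator tRNA, the beta subunit contacts eIF5 and eIF2B, and the alpha subunit is the target of the kinases that shut initiation down. In the libraries of obe1/obe2 RNA of all 3 subunits was lower than in OreR. eIF-2alpha, on the X chromosome, was at 11347, 10376 and 10249.8 normalized counts in OreR, at 5836, 4903 and 6413 in obe1/obe2 and at 8621, 8396 and 9116 in obe2/Df. The 3 groups did not overlap, and obe2/Df lay between the others. The fall in obe1/obe2 was 0.91 ± 0.10 on the log2 scale (a log2 fold change of -0.91 ± 0.10 SE, adjusted p = 0.00038), from a mean of 10658 ± 601 to 5717 ± 762 (SD, n = 3). In obe2/Df eIF-2alpha fell by less, with a log2 fold change of -0.29 ± 0.10 (adjusted p = 0.0337), and it was 0.62 ± 0.10 higher on that scale than in obe1/obe2 (adjusted p = 0.00277). The small fall in obe2/Df lost its call without any 1 of the OreR or obe2/Df libraries, at log2 fold changes of -0.32 to -0.24 and adjusted p of 0.0513 to 0.107.

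For eIF-2beta, on arm 3L, OreR had 5568, 4182 and 4427 normalized counts, obe1/obe2 had 3909, 2260.4 and 2912, and obe2/Df had 7201, 7370.0 and 9081. The obe1/obe2 libraries were all below and the obe2/Df libraries all above those of OreR, an arrangement that 129 of the 8346 tested genes showed (1.55%). Its log2 fold change was -0.67 ± 0.20 in obe1/obe2 (adjusted p = 0.0422), 0.74 ± 0.20 in obe2/Df (adjusted p = 0.0115) and 1.41 ± 0.20 between the obe groups (adjusted p = 0.00226). The fall in obe1/obe2 was called in the fit of all 9 libraries but not without OreR replicate 1, 2 or 3, obe1/obe2 replicate 2 or 3, or obe2/Df replicate 2 or 3, where log2 fold changes were -0.75 to -0.47 and adjusted p 0.0517 to 0.14. edgeR gave an adjusted p of 0.052.

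eIF-2gamma, on arm 3R, was at 9986, 9424 and 10794 normalized counts in OreR, 8298, 5401 and 6355 in obe1/obe2, and at 12402, 10776 and 12147 in obe2/Df. Every obe1/obe2 library lay below every OreR library, while obe2/Df and OreR overlapped. Its log2 fold change was -0.61 ± 0.14 in obe1/obe2 (adjusted p = 0.0163), 0.23 ± 0.14 in obe2/Df (adjusted p = 0.199) and 0.84 ± 0.14 between the obe groups (adjusted p = 0.00307). The call in obe1/obe2 was lost when OreR replicate 3 (-0.56, adjusted p = 0.0608) or obe1/obe2 replicate 3 (-0.59, adjusted p = 0.0571) was left out. In the current annotation (BDGP6.54), 16.0% of the exon length of eIF-2gamma is shared on the same strand with Su(var)3-9, a histone methyltransferase gene, so reads there cannot be told apart. Su(var)3-9 had 4931, 4552 and 3729.8 normalized counts in OreR, 5689, 5703 and 5882 in obe1/obe2, against 5125, 5134 and 5005 in obe2/Df, with both obe groups above OreR. Both eIF-2gamma and obe lie on arm 3R, with 54 annotated genes between them.

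In obe2/Df the proportions of the 3 subunits lay outside those of OreR. Set against its OreR mean, the ratio of eIF-2alpha to eIF-2beta was 0.895 to 1.09 in the OreR libraries, 0.655 to 0.967 in obe1/obe2 and 0.441 to 0.526 in obe2/Df. The ratio of eIF-2alpha to eIF-2gamma, on the same scale, was 0.894 to 1.07 in OreR, 0.662 to 0.950 in obe1/obe2 and 0.654 to 0.733 in obe2/Df. The ratio of eIF-2beta to eIF-2gamma was 0.872 to 1.19, 0.890 to 1.0 and 1.23 to 1.59 in the same order. All 3 ratios of obe1/obe2 overlapped with those of OreR. So relative to the OreR proportions, obe2/Df embryos had little eIF-2alpha RNA and much eIF-2beta RNA for their eIF-2gamma RNA. None of the 3 ratios overlapped with OreR, but any 1 of them follows from the other 2. How often other gene pairs do so was not counted. Of single genes, 36.2% lay above and 34.3% below OreR without overlap in obe2/Df. The current annotation places 12.6% of the exon length of eIF-2alpha opposite rngo and 5.14% of that of eIF-2beta opposite ver, and the library kit does not mark strand, so reads from those stretches cannot be assigned to 1 gene.

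**Figure D2:**
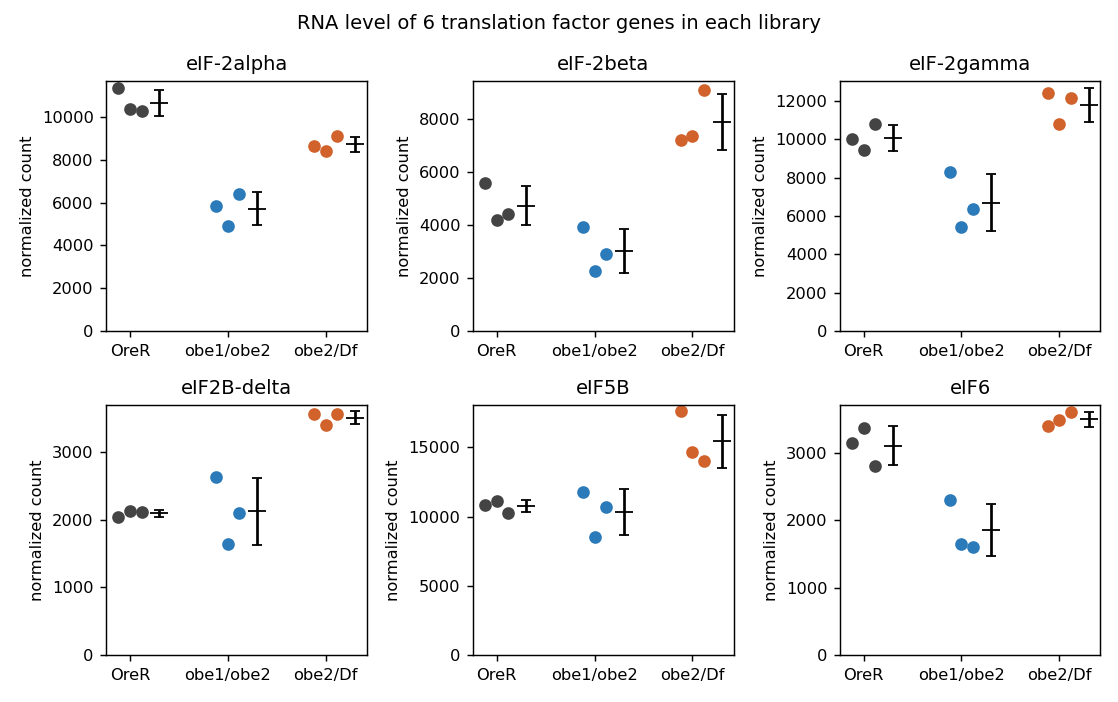
Normalized counts (y axis, from 0) of eIF-2alpha, eIF-2beta, eIF-2gamma, eIF2B-delta, eIF5B and eIF6 in each library of the 3 groups (x axis), with 1 point per library and the mean ± SD beside the points. All obe1/obe2 points lie below all OreR points for the 3 eIF2 genes and eIF6, and all obe2/Df points lie above all OreR points for eIF-2beta, eIF2B-delta, eIF5B and eIF6.

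eIF2B is the exchange factor that puts GTP back on eIF2. Its gamma and epsilon subunits form the catalytic part, and alpha, beta and delta form the regulatory part that senses phosphorylated eIF2alpha. None of the 5 genes was called in obe1/obe2 (22.6% of all genes), where their log2 fold changes ran from -0.20 to -0.01. In obe2/Df against OreR eIF2B-delta alone was called, beside 60.5% of all genes. eIF2B-delta, on arm 2R, was at 2041, 2131 and 2122 normalized counts in OreR, 2636, 1643 and 2099 in obe1/obe2, and at 3574, 3408 and 3564 in obe2/Df. The obe2/Df libraries were all above the others, and the obe1/obe2 libraries lay on both sides of OreR. It rose by 0.74 ± 0.15 (log2 fold change, SE) in obe2/Df against OreR (adjusted p = 0.00362) and was 0.75 ± 0.15 higher than in obe1/obe2 (adjusted p = 0.00546). Relative to OreR, its ratio in obe2/Df was 1.69 to 1.87 to eIF2B-beta, 1.5 to 1.64 to eIF2B-alpha, 1.39 to 1.54 to eIF2B-epsilon and 1.33 to 1.47 to eIF2B-gamma. These ratios ran from 0.873 to 1.10 in the OreR libraries. For obe1/obe2 they were, in the same order, 0.822 to 1.30, 0.999 to 1.36, 0.895 to 1.19 and 0.902 to 1.27, with replicate 1 highest in each.

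eIF2B-gamma, also on arm 2R, was at 2692, 2796 and 2734 normalized counts in OreR, 2704, 2380.4 and 2244 in obe1/obe2, and at 3518, 3050.0 and 3177 in obe2/Df. It was higher in every obe2/Df library than in the others, but only the difference from obe1/obe2 was called (0.41 ± 0.10, adjusted p = 0.0104), and this was lost under quantile normalization (0.13, adjusted p = 0.293). The difference from OreR was 0.24 ± 0.10 (adjusted p = 0.0592). eIF2B-alpha ran from 1253 to 1812 normalized counts over all 9 libraries, eIF2B-beta from 3057 to 3501 and eIF2B-epsilon from 2691 to 4459.6, and none of them was called in any comparison.

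At the start codon, eIF1A steadies the scanning small subunit, eIF5 makes eIF2 hydrolyse its GTP, and eIF5B, itself a GTPase, joins the large subunit. eIF5B rose in obe2/Df, while eIF-1A was called in no comparison and eIF5 was called between the obe groups only. eIF5B, on arm 3L, was at 10836, 11143 and 10270.1 normalized counts in OreR, 11773, 8493 and 10727 in obe1/obe2, and at 17631, 14685 and 13996 in obe2/Df. Its log2 fold change was 0.52 ± 0.13 in obe2/Df against OreR (adjusted p = 0.00853) and 0.59 ± 0.13 against obe1/obe2 (adjusted p = 0.00744), with every obe2/Df library above the other 6, and -0.07 ± 0.13 in obe1/obe2 (adjusted p = 0.726). eIF5, on the X chromosome, was at 83625, 75356 and 80259.9 normalized counts in OreR, 87562, 100613 and 94005 in obe1/obe2, and at 75781, 79542 and 66185 in obe2/Df. The obe1/obe2 libraries were the highest without overlap, but the difference from OreR was not called (0.24 ± 0.09, adjusted p = 0.0872). Against obe1/obe2, eIF5 was lower in obe2/Df at a log2 fold change of -0.35 ± 0.09 (adjusted p = 0.0132), which quantile normalization brought to -0.16 (adjusted p = 0.0825). In the current annotation 80.8% of the exon length of eIF5 is shared on the same strand with CG46312, so reads there cannot be told apart and the level and call of eIF5 are uncertain. eIF-1A stayed between 19036 and 23074 normalized counts in all 9 libraries.

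eIF3 is the largest initiation factor and is built of many subunits. Under the eIF symbols the matrix lists eIF3-S10 (eIF3a), eIF3-S9 (eIF3b), eIF3-S8 (eIF3c), eIF-3p66 (eIF3d1) and eIF-3p40 (eIF3h). In obe2/Df 4 of the 5 fell (29.5% of all genes) and 0 rose (31.0%). Every obe2/Df library was below every OreR library for all 5, as for 34.3% of all genes. eIF3-S10, on arm 3R, was at 66175, 71769 and 67407 normalized counts in OreR, 52089, 53624 and 58776 in obe1/obe2, and at 51004, 49668 and 41368 in obe2/Df. Both obe groups lay below OreR without overlap. Its log2 fold change was -0.54 ± 0.09 in obe2/Df (adjusted p = 0.00162) and -0.32 ± 0.09 in obe1/obe2 (adjusted p = 0.0353). The fall in obe1/obe2 lost its call without OreR replicate 1, 2 or 3, obe1/obe2 replicate 1 or 2, or obe2/Df replicate 2 (-0.35 to -0.29, adjusted p 0.052 to 0.0885).

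eIF-3p40, on arm 2L, was at 27632, 23059.5 and 23570.3 normalized counts in OreR, 16705, 20035 and 19521 in obe1/obe2, and at 15672, 17891 and 17209 in obe2/Df. It too was lower in both obe groups without overlap, with log2 fold changes of -0.55 ± 0.10 in obe2/Df (adjusted p = 0.00215) and -0.40 ± 0.10 in obe1/obe2 (adjusted p = 0.0203). The latter was -0.32 (adjusted p = 0.0682) without OreR replicate 1. In the current annotation 16.8% of its exon length lies opposite senju, with the same limit on strand.

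For eIF3-S8, on arm 2R, OreR had 62341, 67165 and 58463 normalized counts, obe1/obe2 had 53933, 59748 and 62145, and obe2/Df had 44489, 47451 and 41393. obe2/Df was below both other groups, which overlapped. It fell by 0.50 on the log2 scale in obe2/Df against OreR (-0.50 ± 0.08, adjusted p = 0.00162) and was lower than in obe1/obe2 (-0.40 ± 0.08, adjusted p = 0.00629). eIF-3p66, on arm 3R, was at 39217, 36574 and 36861 normalized counts in OreR, 35063, 37795 and 40118 in obe1/obe2, and at 31917, 33066 and 28718 in obe2/Df. The pattern was the same but the change smaller: -0.27 ± 0.08 against OreR (adjusted p = 0.0154) and -0.27 ± 0.08 against obe1/obe2 (adjusted p = 0.0207). Against OreR the call was lost without OreR replicate 1 (-0.24, adjusted p = 0.0534), without obe2/Df replicate 3 (-0.21, adjusted p = 0.0553) and under quantile normalization (-0.12, adjusted p = 0.163). Against obe1/obe2 it was lost without obe1/obe2 replicate 2 or 3 or obe2/Df replicate 3 (-0.27 to -0.21, adjusted p 0.054 to 0.076) and under quantile normalization (-0.14, adjusted p = 0.122). eIF3-S9, from 63841 to 82108 normalized counts over all libraries, had log2 fold changes of 0.01 in obe1/obe2 and -0.19 ± 0.08 in obe2/Df (adjusted p = 0.0578), and was not called.

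Another 9 eIF3 genes with a mean of at least 10 stand in the matrix under other symbols. Over all 14, 12 fell and 1 rose in obe2/Df, where 29.5% of all genes fell, with a median log2 fold change of -0.49. Int6, the gene of eIF3e, had a log2 fold change of -0.53 ± 0.10 (adjusted p = 0.002), CG5642, now named eIF3l, -0.58 ± 0.08 (adjusted p = 0.000657), and CG8636, now named eIF3g1, -0.56 ± 0.10 (adjusted p = 0.00191). The exception was Adam, now named eIF3j, the loosely bound subunit. It was at 3984, 3646 and 3627 normalized counts in OreR, 4628, 2623 and 2885 in obe1/obe2, and at 7776, 7221 and 9159 in obe2/Df, and rose in obe2/Df by 1.10 ± 0.20 on the log2 scale (adjusted p = 0.00198). In obe1/obe2 3 of the 14 fell and 0 rose, with a median log2 fold change of -0.20, beside 11.7% of all genes lower. Without 1 library this count was 0 (OreR replicate 1), 1 (OreR replicate 3 or obe2/Df replicate 2) or 2 to 3. Between the obe groups 8 were lower and 1 higher in obe2/Df, with a median of -0.29, beside 19.5% of all genes lower. That 8 became 3 without obe1/obe2 replicate 2 or obe2/Df replicate 1, and 4 without obe1/obe2 replicate 3 or obe2/Df replicate 3, or under quantile normalization, and 12 with array weights. Under quantile normalization 11 of the 14 fell and 1 rose in obe2/Df, with a median of -0.34. The 14 genes were read in the same libraries, so they are not independent of each other.

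**Figure D3:**
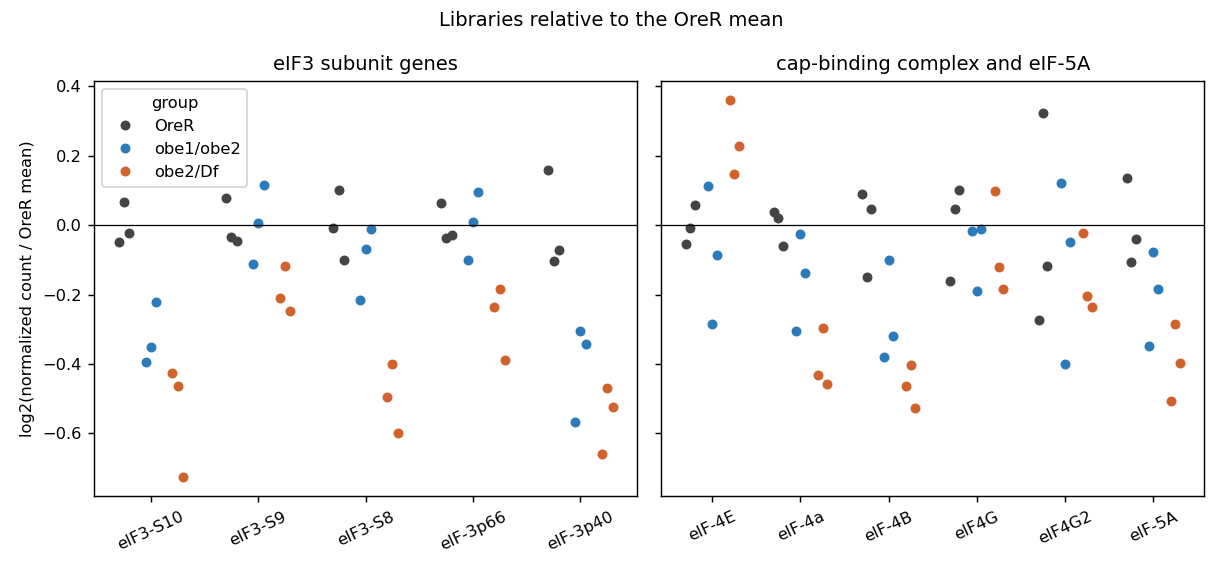
Each library's level relative to the OreR mean (y axis, log2 of the normalized count over the OreR mean) for the 5 eIF3 genes in the left panel and for 5 cap-binding genes and eIF-5A in the right panel (x axis), with 1 point per library coloured by group. The obe2/Df points of the 5 eIF3 genes, eIF-4a, eIF-4B and eIF-5A lie below all OreR points, and those of eIF4G overlap with them.

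At the cap, eIF4E holds the cap structure, eIF4G bridges it to eIF3, and eIF4A, a helicase helped by eIF4B, unwinds the leader. None of the 7 genes of this group was called in obe1/obe2, where 22.6% of all genes were. In obe2/Df the helicase gene and its partner fell, and the genes of the cap-binding protein and the scaffold were not called. eIF-4a, on arm 2L, was at 182568, 180308 and 170490.3 normalized counts in OreR, 144048, 174561 and 161508 in obe1/obe2, and at 131930.2, 144916 and 129410.4 in obe2/Df. It fell in obe2/Df with a log2 fold change of -0.39 ± 0.09 (adjusted p = 0.00521), every library being below OreR, and this became -0.14 (adjusted p = 0.0888) under quantile normalization. In obe1/obe2 its log2 fold change was -0.16 ± 0.09 (adjusted p = 0.235). Between the obe groups it was -0.24 ± 0.09 in obe2/Df (adjusted p = 0.054), which was not called. That held in 15 of 20 alternatives. The difference was called with array weights (adjusted p = 0.0106), TMM factors (0.0494), edgeR (0.0484) and DESeq2 (0.0203), and without obe1/obe2 replicate 1 (0.0225).

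eIF-4B, on arm 3L, was at 62303, 52756 and 60456 normalized counts in OreR, 45005, 54615 and 46859.6 in obe1/obe2, and at 42435, 44233 and 40596 in obe2/Df. It fell in obe2/Df with no overlap, at a log2 fold change of -0.46 ± 0.09 (adjusted p = 0.00339), and its value in obe1/obe2 was -0.26 ± 0.09 (adjusted p = 0.0754). eIF-4E, on arm 3L, was at 49370.1, 51004 and 53425 normalized counts in OreR, 55451, 42095 and 48296 in obe1/obe2, and at 65844, 56754 and 60083 in obe2/Df. All obe2/Df libraries were above all others. The difference from OreR was not called (0.25 ± 0.10, adjusted p = 0.0656), and that from obe1/obe2 was (0.33 ± 0.10, adjusted p = 0.0295).

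Neither result for eIF-4E held in all alternatives. The difference from OreR was called without obe1/obe2 replicate 1 or 2 (adjusted p = 0.0313 and 0.0324), with only the 6 libraries compared (adjusted p = 0.0304), with array weights (0.20, adjusted p = 0.0462), with DESeq2 (adjusted p = 0.0465) and under quantile normalization (0.44, adjusted p = 0.00796). The difference from obe1/obe2 was not called without obe1/obe2 replicate 2 or 3 or obe2/Df replicate 1 or 3, at 0.23 to 0.34 and adjusted p of 0.0665 to 0.0975. eIF4G, on chromosome 4, was at 51416, 59319 and 61559.6 normalized counts in OreR, 56761, 50385 and 56992 in obe1/obe2, and at 61441, 52819 and 50525 in obe2/Df. The groups overlapped throughout, and its log2 fold changes of -0.07 ± 0.10, -0.07 ± 0.10 and 0.00 ± 0.10 in the 3 comparisons were not called. eIF4G2, the eIF4G copy known for its role in the male germ line, ran from 14448 to 23876 normalized counts and was not called.

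The copies eIF4E-5 and eIF4E-6 stood at the lower edge of what these libraries could measure, and they moved in opposite directions. eIF4E-5, on arm 3L, was counted with 45, 36 and 14 reads in OreR, 7, 14 and 12 in obe1/obe2, against 4, 0 and 4 in obe2/Df, or 52.9, 30.4 and 16.7, 6.70, 12.8 and 15.1, and 2.6, 0 and 3.39 normalized counts. OreR was above both obe groups in every library, and obe2/Df was the lowest. The library with 0 reads allows up to 3.85 normalized counts, taking 3 reads as the limit that a count of 0 allows, which covers counting error only. On the log2(normalized count + 1) scale, which understates changes of low genes, eIF4E-5 fell in obe2/Df (-3.63 ± 0.68, adjusted p = 0.0024), while -1.38 ± 0.68 in obe1/obe2 was not called (adjusted p = 0.177). It was also the only one of the 25 genes with an adjusted p under 0.05 in the authors' deposited table for obe2/Df against OreR, at a fold of 0.0599 and an adjusted p of 0.000702; the authors' deposited table for obe1/obe2 gave 0 of the 25, the lowest adjusted p being 0.49 for eIF-2alpha.

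Between the obe groups eIF4E-5 differed by -2.25 ± 0.68 on that scale (adjusted p = 0.026), a call that was lost without obe1/obe2 replicate 2 (-2.15, adjusted p = 0.0737) or 3 (-2.04, adjusted p = 0.0816) and without obe2/Df replicate 2 (-1.59, adjusted p = 0.0676), and under quantile normalization (-1.51, adjusted p = 0.126). eIF4E-6, on arm 3R, had 6, 6 and 6 reads in OreR, 20, 4 and 20 in obe1/obe2, against 32, 16 and 30 in obe2/Df. As normalized counts these were 7.06, 5.07 and 7.16, then 19.1, 3.66 and 25.2, then 20.8, 20.5 and 25.4. The obe2/Df libraries were all above OreR, and obe1/obe2 replicate 2 was below OreR while the other 2 were above. It rose in obe2/Df by 1.65 ± 0.62 (adjusted p = 0.0447) and had 0.87 ± 0.62 in obe1/obe2 (adjusted p = 0.338). The call in obe2/Df was lost without any 1 OreR or obe2/Df library or without obe1/obe2 replicate 1 (1.51 to 1.73, adjusted p 0.0515 to 0.11). It was also lost with DESeq2 (adjusted p = 0.0506), with no filter on low values (adjusted p = 0.0677) and under quantile normalization (adjusted p = 0.127). Over all libraries eIF4E-3 had 25 reads, eIF4E-7 29 and eIF4E-4 0.

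eIF6 and eIF-5A carry initiation factor names but act elsewhere: eIF6 keeps the large subunit from joining too early and takes part in making it, and eIF-5A, now named eEF5, helps the ribosome through difficult peptide bonds in elongation. They did not change together. eIF6, on arm 2R, was at 3150.2, 3374 and 2801 normalized counts in OreR, 2306, 1654 and 1608 in obe1/obe2, and at 3401, 3489 and 3611 in obe2/Df. Like eIF-2beta it was below OreR in all obe1/obe2 libraries and above OreR in all obe2/Df libraries, though the OreR and obe2/Df values nearly touched. Its log2 fold change was -0.76 ± 0.14 in obe1/obe2 (adjusted p = 0.00636), 0.18 ± 0.14 in obe2/Df (adjusted p = 0.313, not called) and 0.93 ± 0.14 between the obe groups (adjusted p = 0.00259). eIF-5A, on arm 2R, was at 170378, 143883 and 150612 normalized counts in OreR, 121759.6, 146986 and 136368 in obe1/obe2, and at 109049.8, 127120.4 and 117796 in obe2/Df. It fell in obe2/Df (-0.39 ± 0.10, adjusted p = 0.00951), with no overlap, and was not called in obe1/obe2 (-0.20 ± 0.10, adjusted p = 0.188). Under quantile normalization its value in obe2/Df was -0.12 (adjusted p = 0.159).

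Per kilobase of exon in the current annotation, the genes spanned a wide range of levels. eIF-5A stood highest with a mean of 168519 normalized counts per kb over the 9 libraries, followed by eIF-4a with 63608 and eIF3-S9 with 27138. The eIF2 subunits ran from 4316 to 5505 and the eIF2B subunits from 1187 to 2414 normalized counts per kb. The eIF4E copies were far below, eIF4E-6 at 21.7 and eIF4E-5 at 15.3. Their order was reversed between groups: in OreR eIF4E-5 had a mean of 32.7 and eIF4E-6 of 9.37 normalized counts per kb, and in obe2/Df they had 1.96 and 32.4. Exon lengths come from BDGP6.54 and the authors counted on dm3, so levels per kb are approximate.

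**Figure D4:**
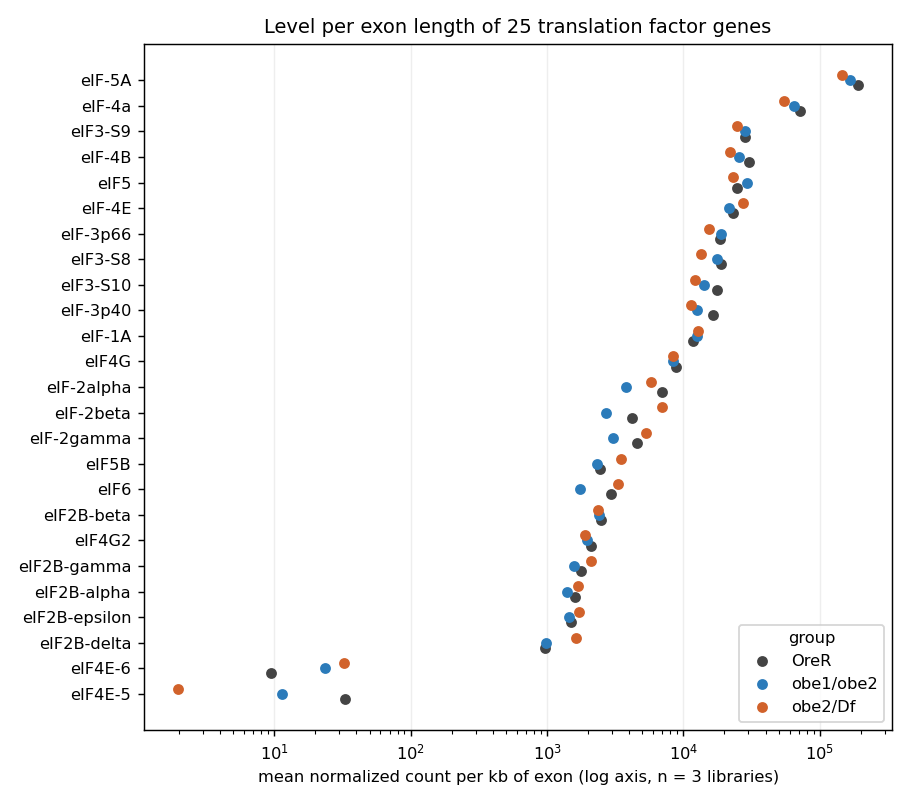
Mean normalized count per kb of exon (x axis, log scale, n = 3 libraries per group) of the 25 genes (y axis), with 1 point per group. eIF-5A and eIF-4a are the highest, the 2 eIF4E copies at the bottom are the lowest, and these copies show the widest spacing between groups.

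Other genes of the pathway stand under symbols that do not start with eIF. Of 22 such initiation factor genes, 19 were tested. In obe1/obe2 3 of them fell and 0 rose (median log2 fold change -0.16), in obe2/Df 10 fell and 5 rose (median -0.35), and between the obe groups 7 were lower and 5 higher in obe2/Df (median -0.18). Of all genes, 11.7% fell and 11.0% rose in obe1/obe2, 29.5% and 31.0% in obe2/Df, and 19.5% were lower and 25.2% higher between the obe groups. NAT1, an eIF4G-related scaffold that drives translation without eIF4E, had the largest of these falls in obe1/obe2. It was at 38829, 38417 and 23926 normalized counts in OreR, 19236, 14589 and 13968 in obe1/obe2, and at 51680.4, 52419.8 and 55609.8 in obe2/Df. As with eIF-2beta, the obe1/obe2 libraries were all below and the obe2/Df libraries all above OreR, and the log2 fold changes were -1.06 ± 0.19 (adjusted p = 0.00483), 0.69 ± 0.19 (adjusted p = 0.0129) and, between the obe groups, 1.75 ± 0.19 (adjusted p = 0.00112).

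The other 2 that fell in obe1/obe2 were ligatin, now named eIF2D, a factor that can place tRNA on the ribosome without eIF2, with -0.38 ± 0.08 (adjusted p = 0.0126), and CG8636 (eIF3g1) with -0.33 ± 0.10 (adjusted p = 0.0422). Without OreR replicate 1 these were -0.34 (adjusted p = 0.0501) and -0.26 (adjusted p = 0.138), and under quantile normalization -0.30 (adjusted p = 0.0801) and -0.28 (adjusted p = 0.114). CG8636 also lost its call without OreR replicate 3, obe1/obe2 replicate 1 or 3, or obe2/Df replicate 2 or 3, at -0.33 to -0.27 and adjusted p of 0.0541 to 0.104. CG5941 (MCTS1), which acts in reinitiation, exceeded its obe1/obe2 level in obe2/Df by 0.64 ± 0.10 (adjusted p = 0.00244), and so did CG2950 (mxt), which binds eIF4E, by 1.46 ± 0.28 (adjusted p = 0.00448). CG10881 (eIF3g2) and CG4810 (eIF3d2) were listed at 0 in all 9 libraries.

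Among 17 tested genes that control initiation, 1 rose and 1 fell in obe1/obe2, 3 rose and 4 fell in obe2/Df, and against obe1/obe2, 2 were higher and 2 lower in obe2/Df. In each comparison this was a smaller share than that of all genes called (22.6%, 60.5% and 44.7%). Gcn2, the kinase that phosphorylates eIF2alpha when amino acids run short, fell in both obe groups. It was at 12579, 15401 and 15086 normalized counts in OreR, 7929.7, 7396 and 7986 in obe1/obe2, and at 9047, 8735 and 8725 in obe2/Df, with log2 fold changes of -0.88 ± 0.09 (adjusted p = 0.000185) and -0.69 ± 0.09 (adjusted p = 0.000375). OreR did not overlap with either obe group. The other eIF2alpha kinase, PEK, which answers to stress in the endoplasmic reticulum, rose in obe1/obe2 by 0.30 ± 0.08 (adjusted p = 0.0221), from 34484 ± 2745 to 42507 ± 2079.6 normalized counts. That call was lost when OreR replicate 1 (0.24, adjusted p = 0.0688) or obe1/obe2 replicate 3 (0.26, adjusted p = 0.0825) was left out. Against obe1/obe2, PEK was lower in obe2/Df (-0.37 ± 0.08, adjusted p = 0.00587). In obe2/Df brat, a translational repressor, rose by 1.01 ± 0.17 (adjusted p = 0.00158), from 35702 ± 5788 to 71498 ± 7373 normalized counts, and was 0.75 ± 0.17 above obe1/obe2 (adjusted p = 0.0083). The RNA helicase gene me31B, which acts in repression of stored mRNA, fell in obe2/Df (-0.35 ± 0.07, adjusted p = 0.00376), but stood at -0.04 (adjusted p = 0.608) under quantile normalization, and pix (ABCE1), which splits ribosomes for reuse, fell too (-0.33 ± 0.07, adjusted p = 0.00423). Against obe1/obe2, pix was lower (-0.21 ± 0.07, adjusted p = 0.0364) and bin3, a gene of translational repression in the embryo, higher (0.49 ± 0.16, adjusted p = 0.0329) in obe2/Df. Both of these calls were lost without OreR replicate 3, obe1/obe2 replicate 2 or 3, or any obe2/Df library (pix -0.24 to -0.17, adjusted p 0.0528 to 0.118, and bin3 0.38 to 0.54, adjusted p 0.0503 to 0.11). They were also lost with a replicate block (adjusted p = 0.0725 for pix and 0.0613 for bin3). That of pix was lost with no filter on low values (adjusted p = 0.0594) and under quantile normalization (-0.12, adjusted p = 0.22).

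Of 11 elongation and termination genes, 1 rose and 0 fell in obe1/obe2, 3 rose and 6 fell in obe2/Df, and against obe1/obe2, 1 was higher and 2 were lower in obe2/Df, where 22.6%, 60.5% and 44.7% of all genes were called. HBS1, a ribosome rescue factor, rose by 0.43 ± 0.11 in obe1/obe2 (adjusted p = 0.0239) and by 0.59 ± 0.11 in obe2/Df (adjusted p = 0.00238). The rise in obe1/obe2 was not called without OreR replicate 1 or 3 or obe1/obe2 replicate 3 (0.34 to 0.43, adjusted p 0.0627 to 0.0863). EfSec, the elongation factor for selenocysteine, was at 138, 117 and 139.7 normalized counts in OreR, 104, 75.1 and 70.6 in obe1/obe2, and at 376, 429 and 509 in obe2/Df. It rose in obe2/Df by 1.72 ± 0.23 (adjusted p = 0.000598), and its obe1/obe2 libraries, all below OreR, were not called (-0.67 ± 0.23, adjusted p = 0.0707). Ef2b (eEF2), which moves the ribosome along, fell in obe2/Df (-0.50 ± 0.10, adjusted p = 0.00328) from 569016 ± 34233 to 401657 ± 31624 normalized counts, and had -0.15 (adjusted p = 0.174) under quantile normalization. Ef1alpha100E (eEF1alpha2), a copy of the factor that delivers tRNA, fell from 109 ± 42.1 to 23.3 ± 8.66 normalized counts (-2.19 ± 0.48, adjusted p = 0.00472). The termination factor gene eRF1 was lower in obe2/Df than its obe1/obe2 level (-0.20 ± 0.06, adjusted p = 0.0317), a call lost without obe1/obe2 replicate 2 or 3 or any obe2/Df library (-0.22 to -0.17, adjusted p 0.0606 to 0.103). Quantile normalization brought this difference to -0.07 (adjusted p = 0.4). The call was also lost with a replicate block (adjusted p = 0.0729) and with no filter on low values (adjusted p = 0.0539).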

How the data were processed

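Gene RNA levels were measured by RNA-seq (TruSeq RNA v2, HiSeq2500, per the labels) in 9 libraries, 3 for each of 3 genotypes. Tools in the submitters' processing notes are Cufflinks 2.1.1, Cuffdiff and STAR, and the build is dm3; which annotation was counted is not given in the sources used here. In unit, the deposited matrix holds a signal, gene reads scaled by the authors with 1 factor per library; 100% of values were whole reads within 0.001 of a read. The authors' deposited tables add a fold (a ratio of means) and p-values per comparison. The log2 fold changes given as the authors' were computed here from their deposited ratio.

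Genes with a mean of at least 10 entered 1 limma fit (3.58.1, R 4.3.3) of all 9 libraries, using log2 of the normalized count plus 1 and a trended prior variance. Benjamini-Hochberg adjusted p under 0.05 over 8346 genes is a call. The members and gene lists were chosen with earlier results of these data known, and some list symbols were corrected to those of the matrix after it was read. Values in every library are given for members called in a comparison and for eIF-4E, eIF-4a and eIF4G; up to 4 called genes with the smallest adjusted p are named per list and comparison, and values of a named gene in another comparison, CG10881 and CG4810 were added after values were seen. Tried as alternatives were array weights, quantile normalization, TMM factors, a minimum mean of 50 or no filter, pseudocounts of 0.5 and 5, a replicate block, only the 6 libraries compared, leaving out each library, edgeR 4.0.16, DESeq2 1.42.0 and the deposited tables. The test was checked on simulated data. Names, chromosome arms and exon lengths come from RefSeq and BDGP6.54; no positions or sequences are given. No replicate pair agreed within sampling noise in a chi-square test, so none was merged as a repeated deposit of 1 library. Figures were drawn with Python 3.11.15 and matplotlib 3.10.9.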

Additional observations from a re-analysis of the deposited data

Results flagged for a closer look

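Both obe groups were compared with the same OreR libraries, and for 2 of the 25 genes all obe1/obe2 libraries lay below and all obe2/Df libraries above all OreR libraries. For eIF-2beta the log2 difference of obe2/Df from obe1/obe2 was 1.41 ± 0.20 (limma, adjusted p = 0.00226). For eIF6 it was 0.93 ± 0.14 (adjusted p = 0.00259). Each difference was called in all 20 alternatives run for it. The 2 genes were picked by this arrangement, which already sets the obe groups apart, so these calls add no separate support. In all, 129 of 8346 genes (1.55%) had this arrangement. The fall of eIF-2beta in obe1/obe2 lost its call without 7 of the 9 libraries in turn, and the rise of eIF6 in obe2/Df was not called.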

How the results depend on the processing

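Of 38 gene comparisons followed, 31 were called, 8 of these in every alternative, or 17 once the authors' deposited tables are set aside. Of the 8, only eIF4E-5 in obe2/Df, with 8 reads there, is a comparison with OreR. The others compare obe2/Df with obe1/obe2, for which the authors gave no table, so they could not lose their call in it. The number of the 25 genes called higher in obe1/obe2 was 0 in the fit reported and 1 under quantile normalization, 2 with array weights and 1 with DESeq2, with 0 to 1 when a library was left out. The number called lower there was 6, against 0 in the authors' deposited table and 3 to 6 without 1 library. In obe2/Df 4 were higher, against 7 with only the 6 libraries compared and 0 in the deposited table, and 9 were lower, against 1 in that table. Between the obe groups 4 were lower, against 2 under quantile normalization, 8 with array weights and 2 to 6 without 1 library (2 without obe1/obe2 replicate 2 and without replicate 3). Over all genes, 1889 were called in obe1/obe2, against 3451 with array weights and 525 in the deposited table, and 5050 in obe2/Df, against 1559. Signs changed only for values that were not called: eIF-4E in obe1/obe2 went from -0.085 to 0.014 without obe1/obe2 replicate 2 (-0.18 to 0.014 over the libraries left out), eIF4G in obe2/Df to 0.14 under quantile normalization, and eIF4G between the obe groups to -0.00332 with TMM factors, -0.077 with array weights and -0.081 to 0.061 without 1 library. Replicate numbers did not pair the libraries across all 3 groups: deviations of same-numbered libraries correlated at -0.20 to 0.52, and 4 of 18 best matches had the same number. All 4 lay between the obe groups, where replicates 1 correlated at 0.52 and replicates 2 at 0.380. There obe1/obe2 replicate 2 correlated with obe2/Df replicate 3 at 0.376, and replicates 3 correlated at 0.005. Whether same-numbered obe libraries share a batch was not tested. With the replicate block 1581, 4854 and 3370 genes were called in the 3 comparisons, and of the 25 genes 0 rose and 5 fell in obe1/obe2, eIF3-S10 losing its call (-0.32, adjusted p = 0.0727). Depth limited eIF4E-5 and eIF4E-6, with totals of 95, 33 and 8 and of 18, 44 and 78 reads in OreR, obe1/obe2 and obe2/Df. The cause of these changes was not tested.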

Other observations

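Markers of 2 further sources of RNA were read in the same libraries. Summed RNA of 5 hemocyte (blood cell) genes ran from 15770 to 16286 normalized counts in OreR, from 11181 to 15449 in obe1/obe2 and from 17362 to 21815 in obe2/Df. Of 4 tested, 1 was higher in obe2/Df than in OreR and 0 lower, where 31.0% and 29.5% of all genes were. Most of each sum was crq, at 14274 to 14954 in OreR, 9134 to 13844 in obe1/obe2 and 14989 to 19393 in obe2/Df. Pxn, Hml and lz were at 0 to 57.7 in every library, except Hml at 339 in obe2/Df replicate 3. The sum therefore mainly follows 1 gene. Summed RNA of 8 genes of the later fat body and adult yolk ran from 59.7 to 190 in OreR, from 363 to 535 in obe1/obe2 and from 137 to 206 in obe2/Df, with Lsp1alpha at 0 in both obe groups and Fbp1 at 0 in obe2/Df. Lsp1gamma carried the higher sum in obe1/obe2, at 494, 474 and 329 against 35.3, 16.9 and 9.55 in OreR; the other 7 genes summed to 34.0 to 50.4 in obe1/obe2 and 50.1 to 155 in OreR. Their part in the values of the initiation factor genes was not tested.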
